A study of Mus musculus with 15 samples.

Results

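The joints described here are 3 arthritic tarsal joints sampled while their clinical score was falling, compared with 3 tarsal joints of mice in which arthritis was not induced. They are 6 of the 15 joints of the series and were chosen by their labels, and 19938 genes were compared between them. All mice were male DBA/1JBom, a strain susceptible to collagen-induced arthritis. Arthritis was induced with 100 µl of chicken collagen II at 2 mg/ml in complete Freund's adjuvant holding 0.5 mg/ml mycobacteria, and boosted on day 21 in incomplete Freund's adjuvant. The declining joints (animals 15, 21 and 10) had held the highest score, 3, for over 2 weeks. By the series' own design text it was at least 3 weeks. They had then lost at least 1 score, or over 1 by the study's methods. The study's sample overview gives the score of these joints at sampling as under 2. The controls are numbered 1, 2 and 3. The labels call them non-induced, and whether they received adjuvant without collagen is not settled by the study's methods. The other arthritic joints all had a score of 3 when sampled: 2 analysed joints at day 0 to 3 of clinical arthritis, 3 at week 1 to 2 and 3 at week 3 to 4. Each joint came from its own mouse and was run on its own Affymetrix array without pooling. An age is not in the labels.

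The value of a gene is its RMA value, a normalised brightness on the log2 scale, so a difference of 1 is 2-fold. Array values of different genes are not compared with each other. The joint was extracted whole after skin, fur and visible muscle were taken off, so bone, cartilage, synovium, tendon, marrow and remnants of the removed tissues all contribute RNA. Fewer cells of one type and less RNA per cell cannot be told apart in such samples. The p-values and standard errors (SE) rest on the spread between mice within groups, pooled over the 14 analysed arrays of 5 groups. They are not the spread of these 6 joints alone.

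Collagen-induced arthritis is an autoimmune disease in which antibodies and T cells against collagen II bring neutrophils and macrophages into the joint. Synovial fibroblasts and macrophages release cytokines such as interleukin-1 and interleukin-6 and matrix metalloproteinases that cleave cartilage. Osteoclasts, large cells that form by fusion of macrophage precursors, dissolve bone mineral with acid and digest its collagen with cathepsin K. Osteoblasts and tendon fibroblasts lay down new collagen, so a joint whose swelling falls can still hold cells that resorb bone and cells that rebuild matrix.

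The series had features that bear on every value below. Declining joint 10 and control 2 had the narrowest spread of values over genes, with SDs of 1.28 and 1.22, against up to 1.65 in the other arrays of the 14 analysed. They also had the lowest limma array weights, 0.20 and 0.28, against 0.55 to 3.01. Another day 0 to 3 joint, animal 57, was marked by the submitters as failing quality control, correlated with its own group at 0.779 and is not in the main comparison. The array names carry a letter code of 2 kinds whose meaning the sources used here do not give. All 3 declining joints and week 3 to 4 joints 29 and 60 have one code, the week 0 to 2 joints and week 3 to 4 joint 54 have the other, and the controls have none. The code and the group therefore cannot be told apart in decline versus control or in decline versus week 0 to 2. Prg4, the lubricating proteoglycan of the joint surface, lay between 12.01 and 12.83 in all 14 arrays.

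No gene passed the test in declining joints versus controls. At an adjusted p under 0.05 (limma over 5 groups, Benjamini-Hochberg over all 19938 genes, two-sided) 0 genes were higher and 0 lower, 0.0% each way, and the lowest adjusted p was 0.104. At an unadjusted p under 0.05, 1113 genes were higher (5.58%) and 1287 lower (6.46%). At 2-fold with that p, 255 were higher (1.28%) and 39 lower (0.196%), and these are the genes drawn dark in the plot of all genes. By ANOVA of the 2 groups alone, which takes the spread from these 6 joints only, the counts were 87 higher and 17 lower. The 3 declining joints were all above the 3 controls for 757 genes (3.8%) and all below for 1237 (6.2%). Of those 1237, 743 were below the median level of all genes, where probes carry little signal, against 198 of the 757. The median difference over all genes was -0.05. With 3 joints against 3, an exact permutation test of a single gene cannot go below a two-sided p of 0.1. Leaving out 1 array gave 191 calls without declining joint 10, 24 without control 1, 7 without control 3, 1 without control 2 and 16 without week 3 to 4 joint 54, and 0 without any of the other 9 arrays. At 2-fold on the higher side it gave 550 genes without joint 10, 403 without control 3 and 146 without joint 21, and on the lower side 88, 83 and 64 without control 1, joint 10 and control 2. Counts of list members at an unadjusted p under 0.05 are read against the shares of 5.58% and 6.46% over all genes. The paragraphs that follow give levels and differences, and "higher" or "lower" means a difference between means, not a gene that passed the test.

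**Figure D1:**
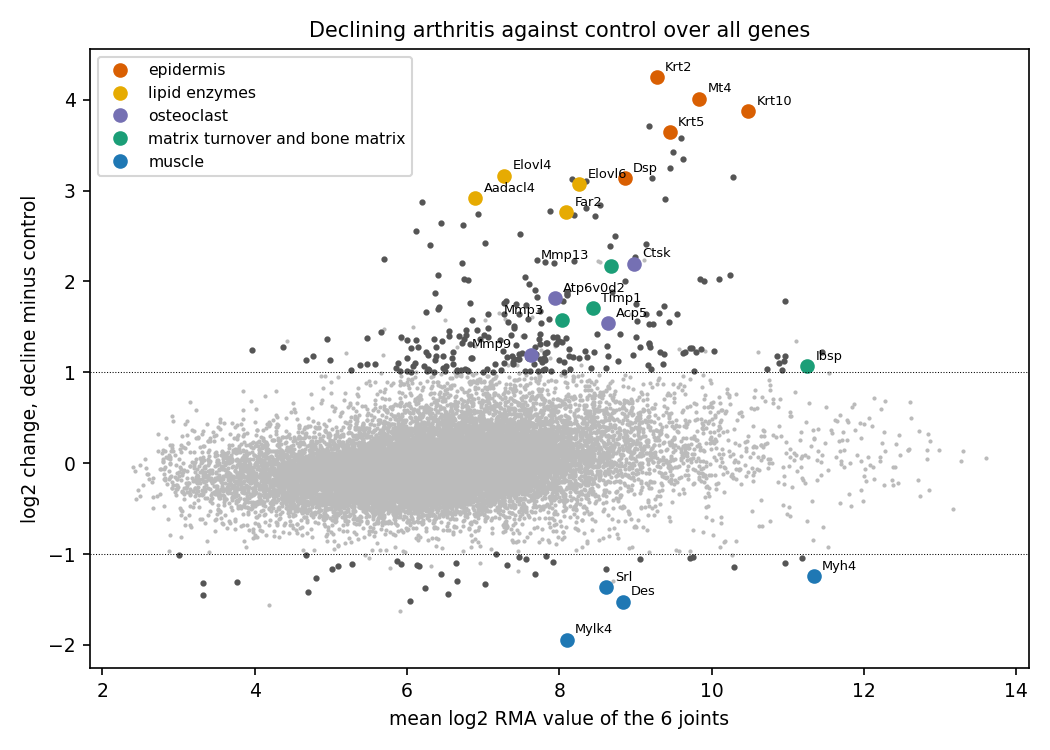
Difference between declining and control joints (log2, vertical axis) against the mean log2 RMA value of the 6 joints (horizontal axis) for 19938 genes, 1 dot per gene, with dotted lines at 2-fold. Dark dots are the 255 genes that were higher and the 39 lower at 2-fold with an unadjusted p under 0.05, and larger coloured dots are named genes of the groups in the key. The higher side reaches 4.25 (Krt2) and the lower side -1.94 (Mylk4).

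Some genes of the bone-resorbing osteoclast had means above control in the declining joints. Acp5, the tartrate-resistant acid phosphatase used to stain osteoclasts, was 9.68, 9.47 and 9.08 in declining joints 15, 21 and 10 and 8.12, 6.95 and 8.53 in controls 1, 2 and 3. Every declining joint was above every control, and the difference was 1.54 ± 0.31 (log2, SE, 3 joints a group), or 2.91-fold (unadjusted p = 0.00024, adjusted p = 0.14). Ctsk, cathepsin K, which digests bone collagen, was 10.14, 10.35 and 9.75 against 9.07, 6.57 and 8.01. The difference of Ctsk was 2.20 ± 0.46, or 4.59-fold (unadjusted p = 0.00032, adjusted p = 0.14), and control 2 was the lowest of the 6 joints by a wide gap. Atp6v0d2, a proton pump subunit that osteoclast precursors need in order to fuse, was 9.45, 8.99 and 8.12 against 7.63, 6.69 and 6.79. Its difference was 1.82 ± 0.39, or 3.52-fold (unadjusted p = 0.00041, adjusted p = 0.14), with joint 10 the lowest of the 3 but still above the controls.

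A pair of further osteoclast genes lay above control with smaller differences. Mmp9, gelatinase B, was 8.15, 8.61 and 7.89 against 7.20, 6.25 and 7.63, a difference of 1.19 ± 0.35. Ckb, a creatine kinase that supplies energy to resorbing osteoclasts, was 9.10, 9.31 and 8.60 against 8.34, 7.52 and 8.24, a difference of 0.97 ± 0.24. Both sets of 3 declining joints cleared all controls. Over the osteoclast list, 5 of 20 members were higher at an unadjusted p under 0.05, against 5.58% of all genes, and none lower, and 4 were at 2-fold against 1.28%. The list's median was 0.15 against -0.05 over all genes, so most members lay close to control. The members ran from -0.31 for Oscar, an osteoclast co-receptor, to the 2.20 of Ctsk. Tcirg1, another proton pump subunit of osteoclasts, differed by 0.07. In the list of ligands and receptors that drive osteoclast formation (the RANKL and CSF1 axis, 10 genes), 0 were higher and 2 lower at an unadjusted p under 0.05. These were Trem2, a receptor of osteoclast precursors, at -0.35, and Fos, an AP-1 subunit that osteoclasts need to form, at -0.74, and the median was 0.11.

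The same genes had stood further from control in the earlier phases, which share the controls with this comparison. Ctsk differed from control by 3.39 at day 0 to 3, 3.45 at week 1 to 2 and 2.87 at week 3 to 4. Acp5 differed by 2.12, 2.07 and 2.00, and Atp6v0d2 by 3.05, 2.73 and 2.48. Tested directly against the week 0 to 2 joints, the declining joints differed by -0.55 ± 0.28 for Acp5 (adjusted p = 0.30), by -1.23 ± 0.41 for Ctsk (adjusted p = 0.11) and by -1.08 ± 0.35 for Atp6v0d2 (adjusted p = 0.10). A p that misses the threshold does not show that the levels were alike. Over the list, the only called difference between decline and week 0 to 2 was 1 lower member, Tcirg1 (-0.64, adjusted p = 0.034). Over all genes, 2.08% were called lower.

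Matrix metalloproteinases cleave collagen and proteoglycans, and Timp1 encodes a secreted inhibitor of many of them. Mmp13, collagenase-3, which cleaves collagen II, had one of the largest differences outside the skin genes. Mmp3, stromelysin-1, degrades proteoglycans and activates other metalloproteinases. Their upstream sequences are printed because both genes were above control and lie on the same chromosome, and because binding sites for AP-1, a factor induced by inflammatory cytokines, and for RUNX, the factor family of bone cells, are known to drive Mmp13, and AP-1 sites also Mmp3. The sequences are the 250 bases before the start of each gene in RefSeq on GRCm38.p6, 5′ to 3′, with AP-1 letters (TGANTCA) and RUNX letters (TGTGGT or ACCACA) in capitals. Both strands were searched, and no 2 matches overlap.
Mmp13 (chr9:7272264-7272513, plus strand): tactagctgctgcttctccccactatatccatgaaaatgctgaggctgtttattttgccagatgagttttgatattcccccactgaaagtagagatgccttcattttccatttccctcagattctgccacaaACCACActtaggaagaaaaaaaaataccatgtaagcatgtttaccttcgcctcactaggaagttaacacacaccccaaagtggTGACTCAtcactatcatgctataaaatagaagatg
Mmp3 (chr9:7445572-7445821, plus strand): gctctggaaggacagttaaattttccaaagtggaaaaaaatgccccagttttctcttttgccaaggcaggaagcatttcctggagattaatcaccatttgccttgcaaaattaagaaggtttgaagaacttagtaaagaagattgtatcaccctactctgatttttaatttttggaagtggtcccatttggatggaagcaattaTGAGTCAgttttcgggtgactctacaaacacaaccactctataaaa
The AP-1 letters of Mmp13 lie 35 to 29 bases before the start and those of Mmp3 46 to 40 bases before it. The RUNX letters of Mmp13 lie 118 to 113 bases before its start, and those letters are not in the window of Mmp3. Among 32851 windows of the same length, 6.75% held the AP-1 letters and 14% the RUNX letters. A match of letters is a description and does not show that a factor was bound.

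Mmp13 was 10.35, 10.20 and 8.76 in declining joints 15, 21 and 10 and 8.75, 6.79 and 7.24 in controls 1, 2 and 3. Joints 15 and 21 were well above the controls, while joint 10 exceeded control 1 by the second decimal only. The difference was 2.18 ± 0.48, or 4.52-fold (unadjusted p = 0.00048, adjusted p = 0.15). Timp1 was 9.68, 9.62 and 8.59 against 7.79, 7.76 and 7.23, with no overlap. Its difference was 1.70 ± 0.40, or 3.26-fold (unadjusted p = 0.00081, adjusted p = 0.16). Mmp3 was 9.01, 9.54 and 7.92 against 8.44, 6.71 and 6.60, so that joint 10 lay below control 1, and the difference was 1.57 ± 0.54.

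The enzymes and their inhibitors did not lie on one side of control. Mmp14, a membrane-bound metalloproteinase that activates Mmp2, was 8.80, 8.69 and 9.04 against 8.57, 7.95 and 7.68, a difference of 0.77 ± 0.21. Mmp2, gelatinase A, differed by 0.87 ± 0.36 with overlapping groups. Timp4, another inhibitor, lay on the other side of control, at 6.83, 6.84 and 6.73 against 7.72, 7.16 and 7.10, a difference of -0.53 ± 0.23. Of 24 measured metalloproteinase and inhibitor genes, 6 were higher and 1 lower at an unadjusted p under 0.05, against 5.58% and 6.46% of all genes. At 2-fold 4 were higher, against 1.28%, and the median was 0.09.

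Mmp13, Mmp3 and Timp1 were also lower than in the early disease. Mmp13 had differed from control by 3.64 at day 0 to 3 and 4.04 at week 1 to 2, and the declining joints differed from the week 0 to 2 joints by -1.67 ± 0.43 (adjusted p = 0.043). Mmp3 differed from them by -2.44 ± 0.49 (adjusted p = 0.016) and Timp1 by -1.86 ± 0.36 (adjusted p = 0.014). These calls moved with the processing, as the adjusted p ran from 0.0099 to 0.86 for Mmp13, from 0.0013 to 0.62 for Mmp3 and from 0.0022 to 0.84 for Timp1 over the alternatives. In the metalloproteinase list, 5 members were lower than at week 0 to 2, against 2.08% of all genes, and 1 was higher, against 2.67%.

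Cathepsins, the proteases of the lysosome, had a median difference of 0.50 over 14 genes, with 3 higher and 0 lower at an unadjusted p under 0.05. Ctsz, a carboxypeptidase of phagocytes, was 8.04, 8.13 and 8.31 against 7.72, 7.33 and 7.36, with no overlap and a difference of 0.69 ± 0.19. Ctss, cathepsin S of antigen-presenting cells, differed by 0.72 ± 0.32, and its groups overlapped at control 1. Ctsh was 7.57, 8.14 and 6.06 against 7.10, 5.88 and 6.18. Joint 10 was between controls 2 and 3 for this gene, and joints 15 and 21 were above all controls.

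**Figure D2:**
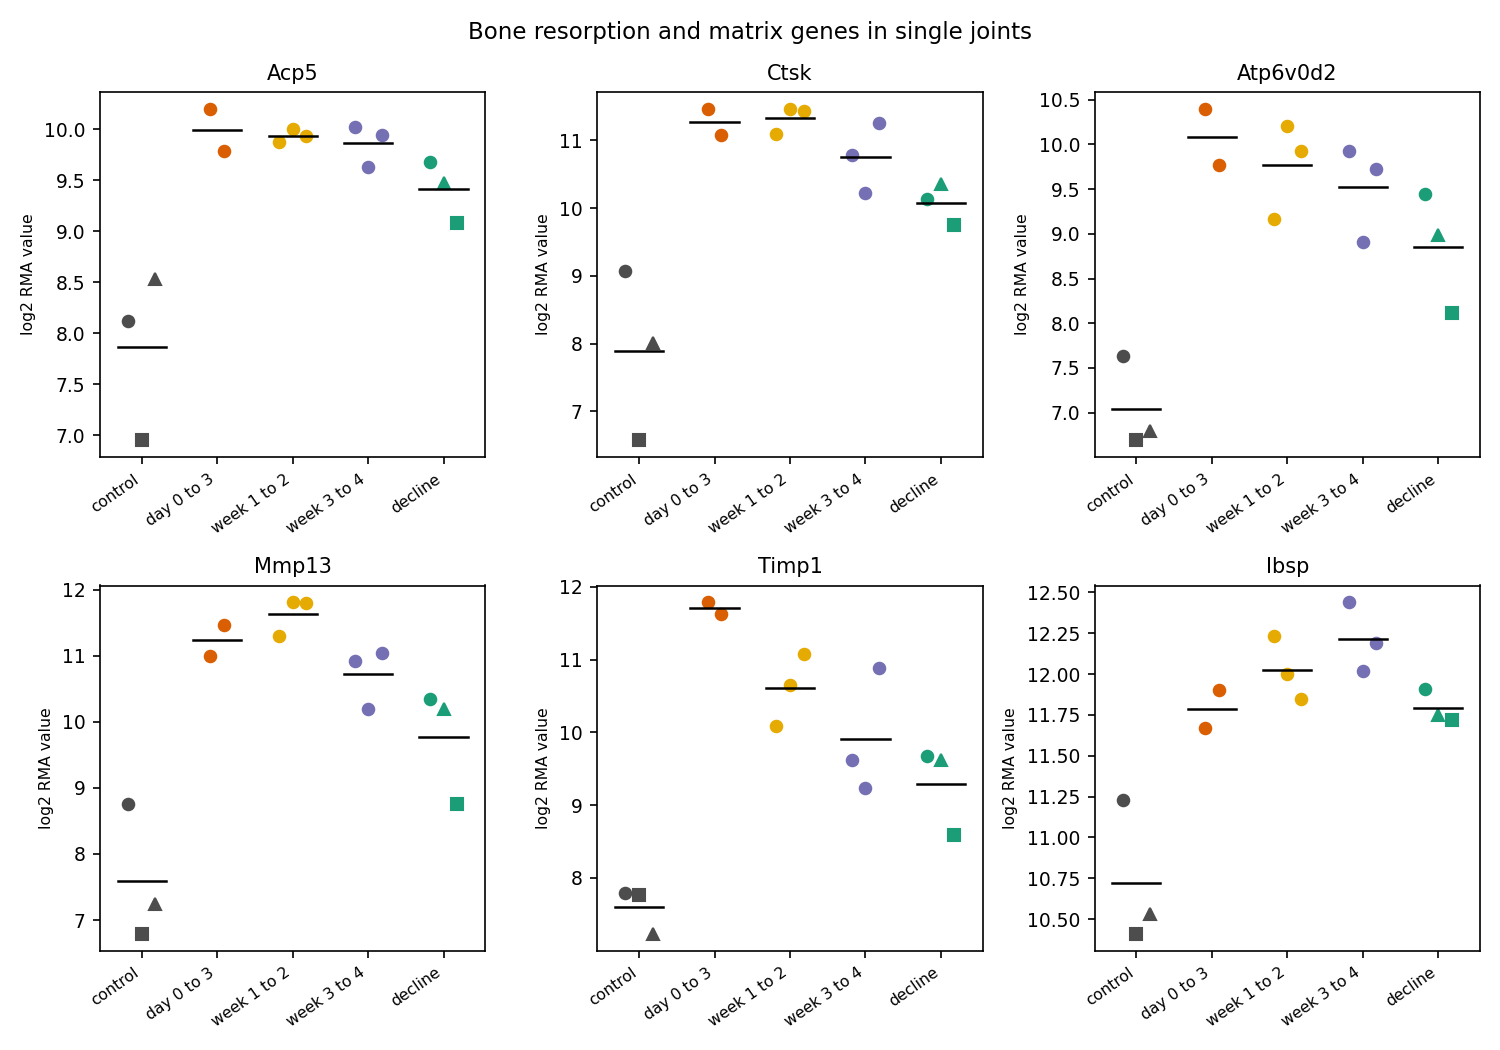
Log2 RMA value (vertical axis) of Acp5, Ctsk, Atp6v0d2, Mmp13, Timp1 and Ibsp in each of the 14 joints, by clinical phase and control (horizontal axis). Each point is 1 joint and black lines are group means. In controls and declining joints the circle, square and triangle are control 1 or animal 15, control 2 or animal 10, and control 3 or animal 21. All 3 declining joints lie above all 3 controls for each of the 6 genes.

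Some genes of bone and collagen matrix had means above control by smaller amounts. Ibsp, bone sialoprotein, which seeds mineral in new bone, was 11.91, 11.75 and 11.72 against 11.23, 10.41 and 10.53. The declining joints lay within a narrow band and above all controls, and the difference was 1.07 ± 0.21, or 2.10-fold (unadjusted p = 0.00015, adjusted p = 0.13). Against week 0 to 2, Ibsp differed by -0.11 ± 0.19 (adjusted p = 0.79). Sparc, osteonectin, a collagen-binding protein of bone, was 12.53, 12.66 and 12.30 against 12.26, 11.58 and 11.50, a difference of 0.71 ± 0.19. Alpl, the alkaline phosphatase that frees phosphate for mineral, was 8.99, 9.11 and 9.68 against 8.77, 8.45 and 8.70, a difference of 0.62 ± 0.20. Both cleared all controls, and joint 10 had the lowest Sparc and the highest Alpl of the 3.

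Of the osteoblast and mineralisation list, 18 of 24 genes were measured on a probe set that names 1 gene, and Runx2, Spp1 and both osteocalcin genes were not analysed here. Of the 18, 6 were higher and 0 lower at an unadjusted p under 0.05, the median was 0.24 and the lowest member was Sp7, an osteoblast transcription factor, at 0.01. Mgp, an inhibitor of calcification made by cartilage and vessels, was 11.32, 11.49 and 10.65 against 10.35, 9.84 and 11.16, so that control 3 lay inside the declining range. Of 10 osteocyte genes, 0 passed an unadjusted p under 0.05 either way. The members ran from -0.39 for Sost, a WNT inhibitor of osteocytes, to 0.54 for Dmp1, a regulator of mineral.

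Alpl and Dlx5 were the members of the osteoblast list that were called higher in decline than in week 0 to 2. Alpl was higher by 1.05 ± 0.18 (adjusted p = 0.010, 0.0019 to 0.11 over the alternatives), having differed from control by -0.77 at day 0 to 3. Dlx5, a homeobox factor of osteoblasts, was higher by 0.87 ± 0.15 (adjusted p = 0.0097, 0.00062 to 0.052 over the alternatives) and differed from control by 0.14. The letter code of the arrays divides these groups in the same way.

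Collagen I and III, the main fibres of bone, tendon and scar, lay above 2 of the 3 controls. Col1a1 was 10.13, 10.71 and 10.97 against 10.53, 9.60 and 9.44, and Col1a2 was 10.29, 10.88 and 10.61 against 10.48, 9.60 and 9.52. The differences were 0.75 ± 0.27 and 0.73 ± 0.24, and control 1 fell inside the declining range for both. The same placing of control 1 was seen for Col3a1 (0.65 ± 0.24) and Col5a2 (0.65 ± 0.22). Of 23 collagen chains, 7 were higher and 0 lower at an unadjusted p under 0.05, none at 2-fold, and the median was 0.28. The enzymes that fold and crosslink collagen had a median of 0.13 over 20 genes, with 0 higher and 0 lower.

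Tendon genes had the highest median of the connective tissue lists, 0.54 over 9 genes. Tnmd, tenomodulin, a marker of mature tendon cells, was 10.10, 9.76 and 9.25 against 9.27, 7.28 and 8.40. Kera, the proteoglycan keratocan, was 9.52, 9.53 and 8.59 against 9.02, 6.19 and 8.16. The differences were 1.39 ± 0.39 and 1.42 ± 0.52, joint 10 lay below control 1 for both, and control 2 was the lowest joint. Thbs4, a thrombospondin of tendon matrix, separated the groups at 11.15, 11.37 and 11.01 against 10.99, 10.18 and 10.49, and joint 10 exceeded control 1 by the second decimal only. Mkx, a tendon transcription factor, differed by 0.58 ± 0.23.

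Among other matrix genes, Postn, periostin, was 10.24, 10.09 and 9.18 against 10.42, 7.54 and 7.58. Control 1 had the highest value of the 6 joints, so the groups overlapped, and the difference was 1.32 ± 0.59. Tnc, tenascin-C, differed by 0.68 ± 0.23 and Lum, lumican, by 0.73 ± 0.27. Of 25 proteoglycan and matricellular genes, 6 were higher and 0 lower than control, with a median of 0.17. Compared with week 0 to 2, 0 members were called higher, against 2.67% of all genes, and 4 lower, against 2.08%. These included Vcan, versican, a large proteoglycan of inflamed tissue, which differed from the week 0 to 2 joints by -1.81 ± 0.29 (adjusted p = 0.0085, 0.00058 to 0.41 over the alternatives) and from control by -0.04. Has2, which makes hyaluronan, differed from them by -1.54 ± 0.27 (adjusted p = 0.0097, 0.0017 to 0.14 over the alternatives) and from control by -0.11.

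Cartilage genes were close to control, with a median of -0.10 over 28 genes, 3 higher and 0 lower at an unadjusted p under 0.05. Edil3, an integrin ligand, was 7.63, 6.81 and 5.86 against 6.02, 5.20 and 5.86, and Hapln1, the link protein of aggrecan, was 7.78, 7.56 and 6.81 against 6.98, 6.64 and 6.11. Joints 15 and 21 were above all controls for both genes and joint 10 was not. Chad, chondroadherin, a cartilage protein that binds collagen II, was 10.36, 10.36 and 10.09 against 10.26, 10.59 and 10.65 and had differed from control by -2.97 at day 0 to 3. It was 1.99 ± 0.18 higher in decline than in week 0 to 2 (adjusted p = 0.00095), a call that held in all 28 alternatives with adjusted p-values of 4.3e-05 to 0.029. Clec3a, a cartilage lectin, was 2.00 ± 0.47 higher than in week 0 to 2 (adjusted p = 0.031, 0.0066 to 0.21 over the alternatives), while the declining joints, at 9.37, 8.97 and 10.96, differed by -1.01 ± 0.53 from controls at 10.55, 11.27 and 10.50.

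The synovial lining list had a median of -0.11 over 13 genes, with 2 higher and 2 lower at an unadjusted p under 0.05. Of the 13, 0 were above all controls and 2 below, against 3.8% and 6.2% of all genes. The members ran from -1.18 for Vsig4 to 0.92 for Cdh11. Cdh11, the cadherin of synovial fibroblasts, was 9.83, 9.41 and 10.01 against 9.83, 8.70 and 7.97. Control 1 matched the declining joints, and the difference was 0.92 ± 0.34.

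Some inflammatory genes that were high in early disease overlapped control in declining joints, and others lay above it. Saa3, an acute phase protein made in inflamed tissue, was 8.48, 9.37 and 6.79 against 8.22, 5.93 and 6.28. The groups overlapped, the difference was 1.40 ± 0.76 (unadjusted p = 0.089, adjusted p = 0.48), and Saa3 had differed from control by 5.30 at day 0 to 3, 4.58 at week 1 to 2 and 2.83 at week 3 to 4. Against the week 0 to 2 joints the declining joints differed by -3.54 ± 0.69 (adjusted p = 0.015, 0.0011 to 0.34 over the alternatives). Il1b, interleukin-1 beta, was 7.05, 6.92 and 6.75 against 6.92, 6.73 and 6.31, a difference of 0.25 ± 0.42. Il6, interleukin-6, was 5.02, 5.49 and 4.84 against 6.07, 5.33 and 3.74, a difference of 0.07 ± 0.68. The groups overlapped for both cytokines, with joint 15 just above the controls for Il1b and all 3 declining joints inside the control range for Il6.

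Several cytokines and chemokines were lower in decline than in week 0 to 2. Il1b differed by -1.87 ± 0.38 (adjusted p = 0.016) and Il6 by -2.32 ± 0.61 (adjusted p = 0.047). Cxcl5, a chemokine that draws neutrophils, differed by -2.23 ± 0.49 (adjusted p = 0.023). Over the alternatives the adjusted p ran up to 0.22 for Il1b, 0.34 for Il6 and 0.29 for Cxcl5, and the lowest were 0.0014, 0.011 and 0.0042. Ccl2 and Ccl3, chemokines for monocytes, differed by -1.19 ± 0.29 and -1.40 ± 0.30, with adjusted p-values of 0.036 (0.014 to 0.21) and 0.020 (0.005 to 0.27). Inhba, which encodes the activin A subunit, differed by -1.93 ± 0.39 (adjusted p = 0.016, 0.0019 to 0.36). Of 34 cytokine and chemokine genes, 9 were lower than at week 0 to 2 and 0 higher, against 2.08% and 2.67% of all genes. Versus control the same 34 had a median of -0.02, with 4 higher and 1 lower at an unadjusted p under 0.05.

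Ptgs2, cyclooxygenase-2, lay on the low side of control. It was 6.35, 6.24 and 6.66 in declining joints and 6.99, 6.89 and 7.04 in controls, with no overlap, a difference of -0.56 ± 0.29 and an unadjusted p of 0.073. It differed from the week 0 to 2 joints by -1.58 ± 0.26 (adjusted p = 0.0088, 0.0015 to 0.27 over the alternatives). Lif, leukaemia inhibitory factor, a cytokine of the interleukin-6 family, differed from control by -0.39 ± 0.19 and from week 0 to 2 by -1.02 ± 0.18 (adjusted p = 0.0097, 0.00058 to 0.12). Pla2g4a, the phospholipase that frees the substrate of cyclooxygenases, lay above all controls, at 7.15, 6.82 and 6.72 against 6.20, 5.90 and 6.41, a difference of 0.72 ± 0.20.

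The means of a few other cytokine genes were above control. Ccl12, a monocyte chemokine of mice, was 8.18, 9.03 and 7.26 against 7.36, 5.69 and 6.95, a difference of 1.49 ± 0.45 with joint 10 below control 1. Ccl9, which acts on osteoclast precursors, was 7.01, 7.37 and 6.73 against 6.67, 6.44 and 6.33, a difference of 0.56 ± 0.23 with no overlap. Il18, interleukin-18, was 5.52, 7.65 and 7.21 against 5.22, 5.05 and 6.04. Joints 21 and 10 were well above the controls, joint 15 was not, and the difference was 1.35 ± 0.53.

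**Figure D3:**
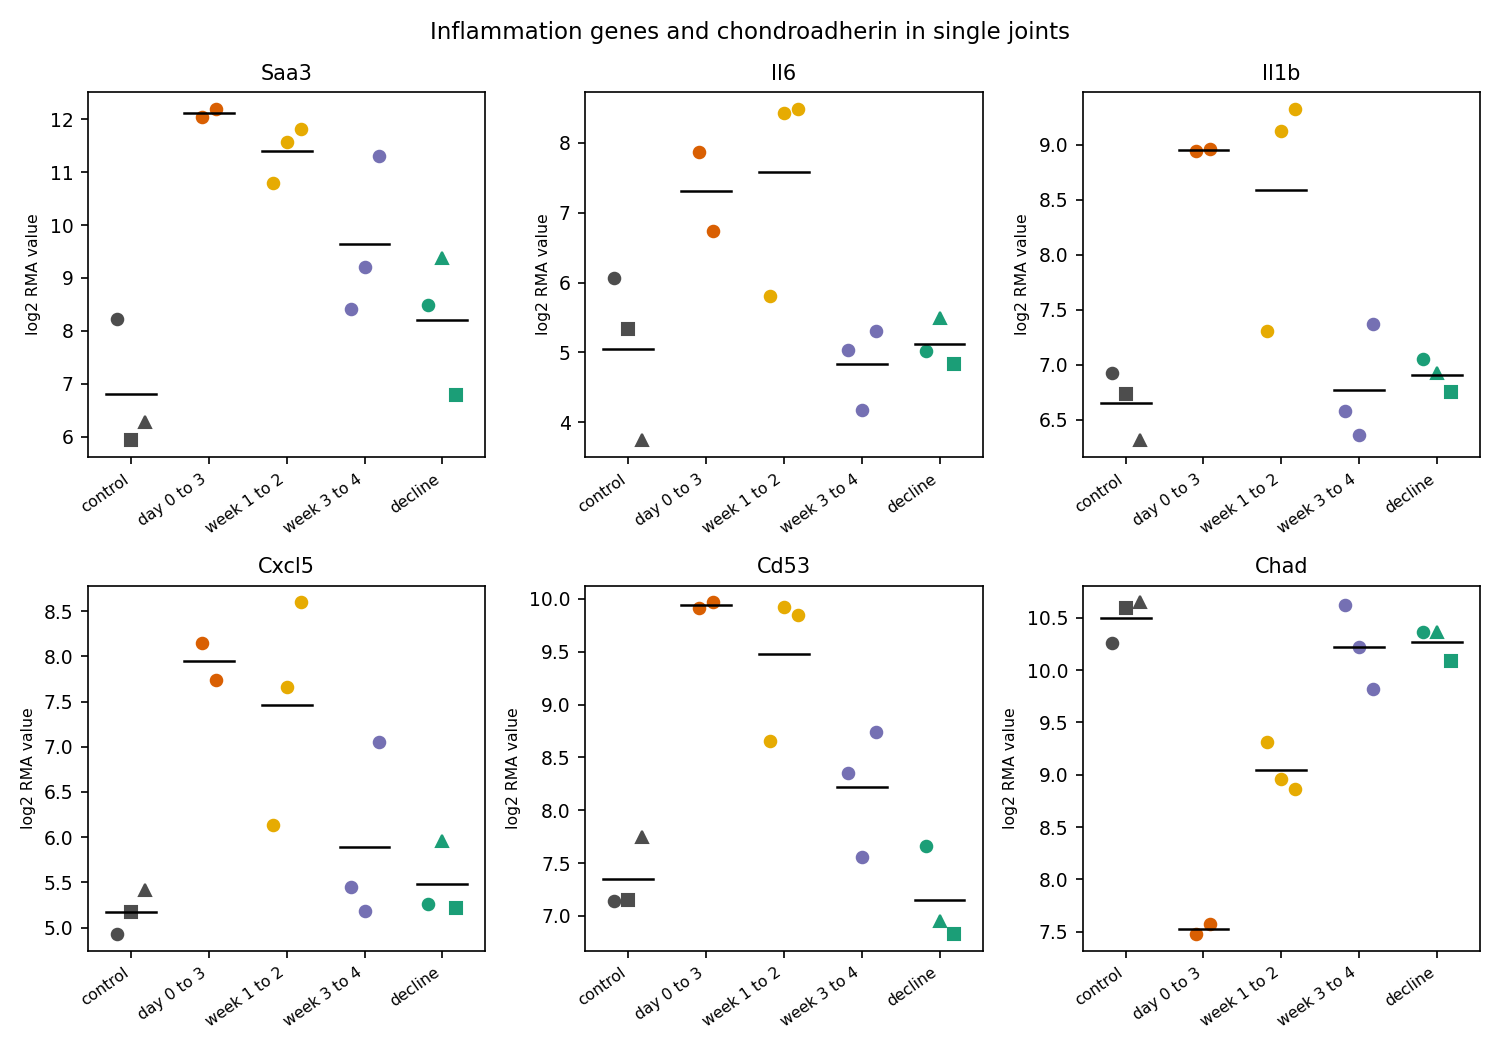
Log2 RMA value (vertical axis) of Saa3, Il6, Il1b, Cxcl5, Cd53 and Chad in each of the 14 joints, by clinical phase and control (horizontal axis). Each point is 1 joint and black lines are group means. In controls and declining joints the circle, square and triangle are control 1 or animal 15, control 2 or animal 10, and control 3 or animal 21. The declining joints overlap the controls for all 6 genes, while the 5 week 0 to 2 joints lie higher for Saa3, Il1b, Cxcl5 and Cd53 and lower for Chad.

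Macrophage genes had a median of 0.20 over 28 genes, with 4 higher and 3 lower at an unadjusted p under 0.05, against 5.58% and 6.46% of all genes. Ms4a7, a membrane protein of macrophages, was 8.77, 8.61 and 7.60 against 7.79, 6.52 and 6.81, a difference of 1.28 ± 0.32 with joint 10 inside the control range. Clec4d, a macrophage lectin that senses fungi and mycobacteria, was 6.89, 6.57 and 5.85 against 5.84, 4.87 and 5.27, a difference of 1.11 ± 0.39. Cd163, the scavenger receptor of resident macrophages, was on the other side at 6.45, 7.06 and 6.26 against 7.53, 7.32 and 7.02. Its difference was -0.70 ± 0.27, and joint 21 exceeded control 3 by a small margin. Retnla, a marker of alternatively activated macrophages that is also expressed in fat, was 8.16, 8.50 and 7.45 against 8.60, 9.17 and 9.83, a difference of -1.17 ± 0.34 with no overlap.

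Cd53, a tetraspanin of white blood cells, and C3ar1, the receptor for a complement fragment, were at control levels in decline, with differences of -0.20 ± 0.36 and -0.10 ± 0.31. They differed from the week 0 to 2 joints by -2.56 ± 0.32 and -2.05 ± 0.28, with adjusted p-values of 0.0025 (0.00049 to 0.16 over the alternatives) and 0.004 (0.00013 to 0.42). Msr1, a macrophage scavenger receptor, differed from them by -1.89 ± 0.33 (adjusted p = 0.010, 0.00084 to 0.50). In the macrophage list, 9 of 28 members were lower than at week 0 to 2, against 2.08% of all genes, and 1 was higher, against 2.67%. Retnla was the higher one, by 1.15 ± 0.30 (adjusted p = 0.049, 0.0036 to 0.81). The neutrophil list differed from control by a median of -0.04 over 17 genes, with 0 higher and 1 lower.

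Antigen presentation and interferon genes gave a few members above control. Cd74, the invariant chain of MHC class II, was 8.27, 8.60 and 8.11 against 7.46, 6.70 and 7.46, with no overlap and a difference of 1.12 ± 0.24 (unadjusted p = 0.00045, adjusted p = 0.14). Its list of 12 had a median of 0.08, with 2 higher and 0 lower, and the lowest member was H2-Eb1 at -0.33. Cd74 was the only 1 of the 12 above all controls. Ifit3, an antiviral protein, was 8.98, 9.44 and 8.44 against 8.26, 7.50 and 7.38, a difference of 1.24 ± 0.32. Rtp4 differed by 1.09 ± 0.30 and Ifih1, a sensor of viral RNA, by 0.64 ± 0.15, and for all 3 genes the declining joints cleared the controls. Oasl1 lay on the other side, at -0.48 ± 0.17. The interferon list had 6 higher and 1 lower of 20 and a median of 0.13.

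Lymphocyte lists lay at control. The T and NK list had a median of -0.10 over 17 genes with 0 higher and 1 lower, and the B cell and precursor list -0.10 over 15 genes with 0 and 0. Sdc1, which marks plasma cells and is also strongly expressed by keratinocytes, was 7.82, 7.86 and 8.33 against 7.13, 7.29 and 6.80, a difference of 0.93 ± 0.19. The plasma cell list had a median of 0.07. Vpreb1, a surrogate light chain of B cell precursors in marrow, was 11.42, 10.22 and 11.68 against 10.94, 12.05 and 10.87. It differed from control by -0.18 ± 0.43 and was 2.12 ± 0.38 higher than in week 0 to 2 (adjusted p = 0.011, 0.00044 to 0.11 over the alternatives). In the mast cell list, Fcer1a, an IgE receptor chain, was 5.91, 6.06 and 5.35 against 4.73, 4.95 and 5.14. Ms4a2, its partner chain, was 4.30, 4.19 and 4.16 against 4.71, 5.04 and 4.93. The differences were 0.83 ± 0.21 and -0.67 ± 0.15, neither with overlap. Both genes lay below the median level of all genes, where probes carry little signal.

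The largest differences were those of epidermal genes. Krt2, a keratin of the upper epidermis, was 11.04, 11.79 and 11.39 in declining joints and 5.70, 5.74 and 10.04 in controls. Krt10 was 12.19, 12.56 and 12.50 against 7.27, 6.28 and 12.09, and Mt4, a metallothionein of stratified epithelium, was 11.25, 12.08 and 12.20 against 6.07, 6.51 and 10.91. The declining joints were high together, and control 3 was close to them while controls 1 and 2 were far below. The differences were 4.25 ± 1.18, 3.87 ± 1.19 and 4.01 ± 1.22, with unadjusted p-values of 0.0031, 0.0061 and 0.0056. Krt5, a keratin of the basal layer, differed by 3.64 ± 0.97. Other genes of the epidermis among the largest non-overlapping differences were Dapl1 (3.34), Dsp, the desmosomal protein desmoplakin (3.14), Calm4 (3.13), Lce1d, of the cornified envelope (3.11), and Defb6, a beta-defensin (2.77).

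Of 27 measured epidermis and hair genes, 22 were higher at an unadjusted p under 0.05, against 5.58% of all genes, and 0 lower. At 2-fold 21 were higher, against 1.28%, and 13 were above all controls, against 3.8%. The median difference was 2.24 and the members ran from -0.23 for Lce3c to 4.01 for Mt4. The mean level of the list was 9.31, 10.18 and 9.48 in joints 15, 21 and 10 and 6.40, 6.50 and 9.11 in controls 1, 2 and 3. In the other arthritic joints it was 5.81 to 6.36 at week 0 to 2, 6.51 in week 3 to 4 joint 54 and 9.48 and 9.41 in joints 29 and 60. A high level was thus found in all 5 joints whose arrays carry the code of the declining joints, and in control 3, which carries none. Without control 3 the list's median difference was 3.18. Skin is not a tissue of the joint and was removed at sampling, and the part of remaining skin in these differences was not tested.

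A further 4 genes with large non-overlapping differences, 3 of them enzymes that elongate or reduce fatty acids, were picked for their size and stand for no list. Elovl6, which elongates palmitate, was 9.97, 9.70 and 9.71 in declining joints and 7.28, 5.75 and 7.16 in controls. The groups were far apart, the difference was 3.07 ± 0.53, or 8.40-fold (unadjusted p = 5.4e-05, adjusted p = 0.10), and control 3, high in epidermis genes, had a level near that of control 1. Aadacl4, a member of the arylacetamide deacetylase family, was 8.18, 8.59 and 8.30 against 5.04, 4.98 and 6.31, a difference of 2.92 ± 0.46, or 7.55-fold (unadjusted p = 2.1e-05). Far2, which makes fatty alcohols for waxes of sebaceous glands, differed by 2.76 ± 0.52, and Elovl4, which makes the very long fatty acids of the skin barrier, by 3.16 ± 0.69. All 3 declining joints cleared all controls for these 4 genes. Elovl6 was between 9.59 and 9.97 in the 5 arrays with the code of the declining joints and between 5.75 and 7.44 in the other 9 of the 14.

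**Figure D4:**
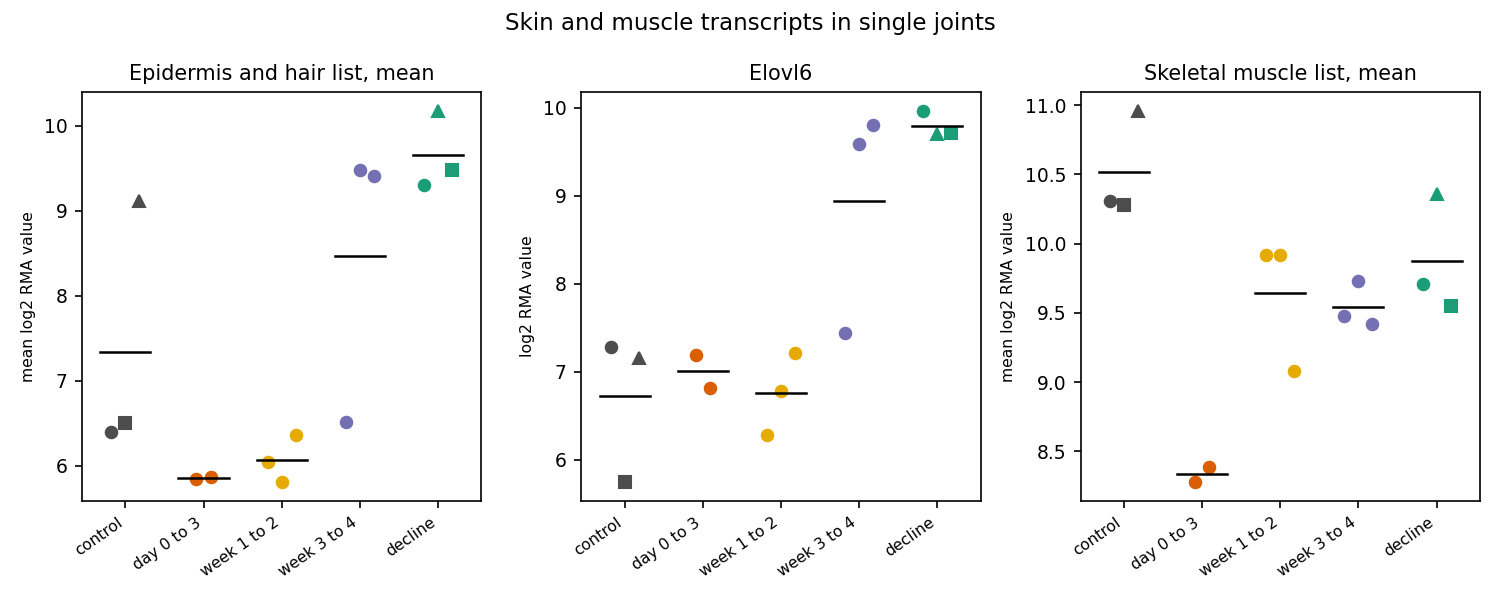
Mean log2 RMA value of the epidermis and hair list, log2 RMA value of Elovl6, and mean of the skeletal muscle list (vertical axes) in each of the 14 joints, by clinical phase and control (horizontal axis). Each point is 1 joint and black lines are group means, and in controls and declining joints the circle, square and triangle are control 1 or animal 15, control 2 or animal 10, and control 3 or animal 21. Epidermis is high in all declining joints, in joints 29 and 60 of week 3 to 4 and in control 3 (9.11), and Elovl6 in the same joints except control 3 (7.16).

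Muscle genes had the lowest median of the 39 lists. Des, desmin, the intermediate filament of muscle, was 8.20, 8.0 and 8.01 against 9.49, 9.24 and 10.05. The declining joints lay close together and far below every control, a difference of -1.52 ± 0.25, or 2.87-fold lower (unadjusted p = 3.9e-05, adjusted p = 0.10). Srl, sarcalumenin, which binds calcium in muscle, was 7.93, 7.99 and 7.90 against 9.26, 8.79 and 9.85, a difference of -1.36 ± 0.26. Filip1, which is expressed in muscle and brain, was 7.19, 7.22 and 6.80 against 8.41, 7.85 and 8.61, a difference of -1.22 ± 0.21 (unadjusted p = 4.4e-05). Myh7, the slow myosin, differed by -1.05 ± 0.25 and Myh4, the fastest myosin, by -1.24 ± 0.41, neither with overlap. Pdk4, which spares glucose in fasted muscle, differed by -1.15 ± 0.34, also without overlap.

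The muscle list as a whole had a median of -0.59 over 25 genes, with 12 lower and 0 higher at an unadjusted p under 0.05, against 6.46% and 5.58% of all genes. At 2-fold 5 were lower, against 0.196%, and 8 were below all controls, against 6.2%. The members ran from -1.94 for Mylk4, a myosin light chain kinase, to -0.06 for Myl2, a slow light chain. The mean level of the list was 9.71, 10.36 and 9.55 in joints 15, 21 and 10 and 10.31, 10.28 and 10.96 in controls 1, 2 and 3, so joint 21 was at the level of controls 1 and 2. Against week 0 to 2, where the mean was 8.28 to 9.92, 13 members were higher in decline and 0 lower, against 2.67% and 2.08% of all genes. They included Myl2 (1.80 ± 0.29, adjusted p = 0.0088, 0.00049 to 0.11 over the alternatives), Atp2a1, the calcium pump of fast muscle (1.66 ± 0.25, adjusted p = 0.007, 0.0022 to 0.12), and Myh1 (1.47 ± 0.24, adjusted p = 0.0089, 0.0051 to 0.17). The amount of muscle left on each joint is not in the labels, and its part in these differences was not tested.

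Adipocyte genes had a median of -0.27 over 17 genes, with 6 lower and 1 higher. Adipoq, adiponectin, was 10.53, 9.97 and 10.31 against 10.81, 11.20 and 10.88, a difference of -0.69 ± 0.19. Retn, resistin, a hormone of mouse fat, was 7.39, 7.29 and 7.61 against 8.40, 8.15 and 8.27, a difference of -0.84 ± 0.20, and both separated the groups. Cidea, a lipid droplet protein of brown fat and sebaceous glands, was the higher one, at 0.90 ± 0.32. Npr3, the clearance receptor for natriuretic peptides, whose loss in mice lengthens bones, was 6.54, 5.86 and 6.70 against 7.69, 7.42 and 7.98. Its difference was -1.33 ± 0.22, or 2.51-fold lower, with an unadjusted p of 3.3e-05 and no overlap.

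Some genes on the lower side had little signal. Of the 39 genes lower at 2-fold, 18 were below the median level of all genes, near the share that a median sets for all genes. On the higher side it was 51 of 255. Among the 39 were genes of olfactory or vomeronasal receptors, the sensors of smell and pheromones, and the share of such genes over all genes was not computed. Olfr15 had the lowest unadjusted p of the named genes (1.2e-05) at levels of 4.49, 4.10 and 4.69 against 5.53, 5.58 and 5.69. Olfr948 was 2.71, 2.61 and 2.48 against 3.38, 5.34 and 3.43, and Olfr68 was 5.76, 5.61 and 6.07 against 6.09, 8.58 and 7.09, with control 2 standing apart for both. Spink12, a protease inhibitor, was 5.51, 5.56 and 5.72 against 5.82, 6.07 and 8.28, and its difference was -1.13 with control 3 and -0.35 without it. Control 2 and joint 10 are the arrays with the narrowest range of values.

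Several genes of protein synthesis and breakdown were above control. Rpl9, of the large ribosomal subunit, was 11.44, 11.66 and 11.27 against 10.52, 9.74 and 10.57, a difference of 1.18 ± 0.22 (unadjusted p = 0.00012, adjusted p = 0.13). Rpl9 has 7 further probe sets in the table, with differences of 0.84 to 1.32, and its near-identical copies in the genome make the source of the signal uncertain. Psmd14, a deubiquitinase of the proteasome, was 8.35, 8.70 and 8.53 against 7.62, 7.74 and 7.53, a difference of 0.89 ± 0.16 (unadjusted p = 6.8e-05, adjusted p = 0.10). For both genes the declining joints cleared the controls. Sec61b, of the protein channel of the endoplasmic reticulum, was 10.20, 10.54 and 8.73 against 8.05, 8.91 and 8.69. Joint 10 was among the controls, the difference was 1.28 ± 0.38, and the gene's other probe sets gave 0.81 and 0.48.

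The ribosomal protein list had a median of 0.53 over 17 genes, with 7 higher and 0 lower at an unadjusted p under 0.05, against 5.58% and 6.46% of all genes, and 6 above all controls, against 3.8%. Its mean level was 10.99, 11.37 and 10.54 in joints 15, 21 and 10 and 10.48, 9.79 and 10.74 in the controls, so joint 10 was inside the control range and control 2 was the lowest. The proteasome list had a median of 0.25 over 22 genes with 4 higher and 0 lower. The endoplasmic reticulum list had a median of 0.31 over 22 genes with 3 higher and 0 lower. These lists hold strongly expressed genes, and both arrays with the narrowest range of values had the lowest list means of their groups in all 3 lists.

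Signalling lists were close to control, while the hypoxia and glycolysis list had a lower median. The BMP, activin and TGF-beta list had a median of -0.04 over 33 genes with 1 higher and 0 lower, and the insulin-like growth factor list 0.11 over 17 with 0 and 2. The WNT list had a median of -0.05 over 39 genes with 0 higher and 2 lower. Its lowest member was Ndrg2, a gene of muscle, brain and fat, at 9.49, 9.89 and 9.55 against 10.39, 10.42 and 10.89, a difference of -0.92 ± 0.21. Ndrg2 was 1.08 ± 0.19 higher than in week 0 to 2 (adjusted p = 0.010, 0.0019 to 0.099 over the alternatives). The hypoxia and glycolysis list had a median of -0.30 over 18 genes, with 4 lower and 0 higher. Without joint 10 its median was -0.10, the same as over all genes. The 4 lower genes included Pdk1, a kinase that holds back pyruvate oxidation, at -0.75 ± 0.25, and Vegfa, the vessel growth factor, at -0.54 ± 0.22. Lists of endothelial, erythroid, Schwann cell and cell cycle genes had medians of 0.03, 0.01, -0.30 and 0.08.

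**Figure D5:**
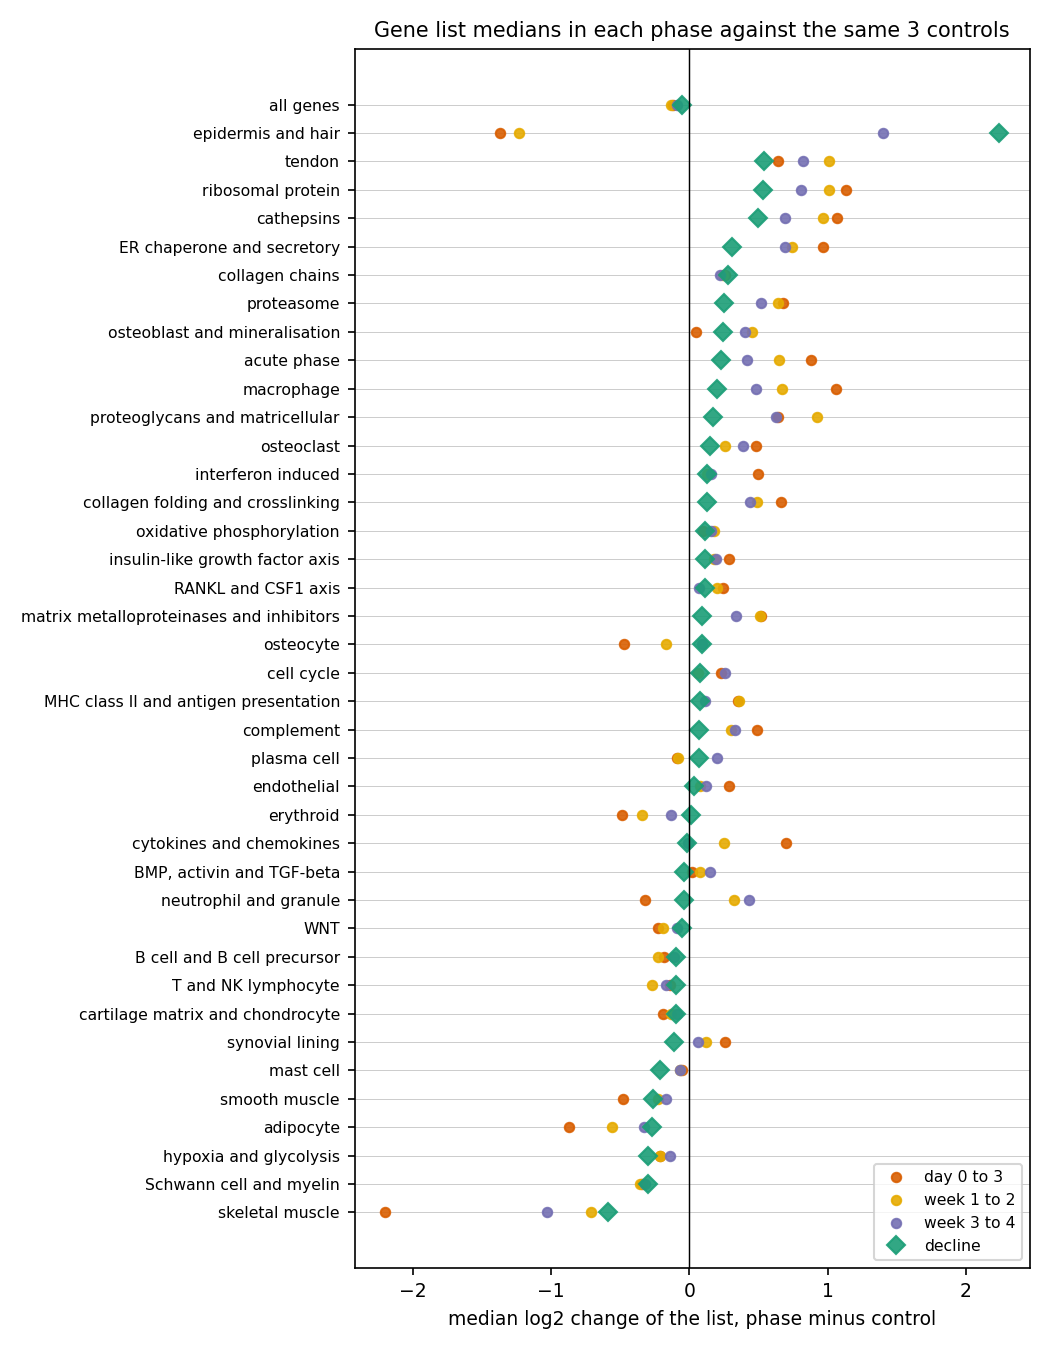
Median difference from control (log2, horizontal axis) over the measured genes of each of the 39 lists (rows), in declining joints and in the earlier phases, which share the same controls. In decline the epidermis list lies furthest above 0 (2.24) and the skeletal muscle list furthest below (-0.59). The other lists lie between -0.30 and 0.54.

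Declining joints differed from the joints of the first 2 weeks for 947 genes, a comparison that shares no controls. At an adjusted p under 0.05, 533 genes were higher in decline (2.67%) and 414 lower (2.08%). The largest differences on the higher side were keratinocyte genes, Krt2 (6.32 ± 1.06, adjusted p = 0.0093), Krt24 (6.09 ± 1.19, 0.015), Krtdap (6.05 ± 1.08, 0.011), Krt1 (5.75 ± 1.17, 0.017) and Krt10 (5.56 ± 1.08, 0.015). In the epidermis list 24 of 27 were higher. Elovl6 was 2.91 ± 0.48 higher, Elovl4 3.80 ± 0.62, Far2 3.41 ± 0.47 and Aadacl4 3.36 ± 0.41, with adjusted p-values of 0.0088, 0.0088, 0.004 and 0.0022. The largest on the lower side were Saa3, Rplp0 (-2.98 ± 0.58, adjusted p = 0.015), Mrps18c (-2.59 ± 0.69, 0.048), Cd53 and Snora31 (-2.51 ± 0.35, 0.0045). Rplp0 and Mrps18c encode ribosomal proteins of cytosol and mitochondria, and Snora31 is a small nucleolar RNA. A second Rplp0 probe set gave a difference of -0.26 between decline and control where the one used gave 0.57.

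All declining arrays carry one letter code and all week 0 to 2 arrays the other, so the phase and the code cannot be told apart for any of these genes. The number of calls also depended on single joints. It was 213 without joint 16 and 203 without joint 18 of day 0 to 3, each of which leaves 1 array in that phase, and 400 and 416 without joints 43 and 52 of week 1 to 2. It was 506 without declining joint 10, and 119 with animal 57 added. Of the 40 genes named here with this comparison, only Aadacl4, Chad and Far2 kept an adjusted p under 0.05 in all 28 alternatives.

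No gene separated the declining joints from those of week 3 to 4 by the test. At an adjusted p under 0.05, 0 genes were higher and 0 lower (0.0% each, limma), and at an unadjusted p under 0.05, 571 were higher (2.86%) and 652 lower (3.27%). For the genes above control, Acp5 differed from week 3 to 4 by -0.45 ± 0.31, Ctsk by -0.67 ± 0.46, Mmp13 by -0.95 ± 0.48, Timp1 by -0.61 ± 0.40 and Ibsp by -0.42 ± 0.21. Each lay below its week 3 to 4 mean, by no more than about 2 standard errors. Within the code that the declining joints share with week 3 to 4 joints 29 and 60, that is without joint 54, the count was also 0. With array weights it was 6, with Bub1, a mitotic kinase, Dusp12, Rgs2 and Slc44a1 lower and Ephx4 and Snord96a higher. Those other than Bub1 were named after their values were seen.

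Of the 14 arrays, declining joint 10 was the one whose removal gave the most calls against control. With joints 15 and 21 alone against the 3 controls, 147 genes were higher (0.737%) and 44 lower (0.221%) at an adjusted p under 0.05. The higher genes included Mmp13 (2.68, adjusted p = 0.022), Atp6v0d2 (2.18, 0.030), Timp1 (2.05, 0.040), Acp5 (1.71, 0.042), Ckb (1.18, 0.042) and Ibsp (1.11, 0.047). Ctsk had a difference of 2.37 and an adjusted p of 0.054. Over all alternatives the adjusted p of Mmp13 ran from 0.022 to 0.94, of Acp5 from 0.027 to 0.94, of Atp6v0d2 from 0.030 to 0.94, of Timp1 from 0.040 to 0.94, of Ckb from 0.042 to 0.94, of Ibsp from 0.023 to 0.94 and of Ctsk from 0.024 to 0.94. In the osteoclast list 3 of 20 members were called higher, in the metalloproteinase list 2 of 24, in the ribosomal list 2 of 17 and in the epidermis list 0 of 27.

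Skin and lipid genes were also called higher without joint 10, among them Elovl6 (3.11, adjusted p = 0.041), Aadacl4 (2.95, 0.030), Defb6 (3.57, 0.018) and Far2 (2.98, 0.041). Of the other genes, Ms4a7 had a difference of 1.64 (adjusted p = 0.030), Ccl5, a T cell chemokine, 1.03 (0.040), Rtp4 1.43 (0.036) and Edil3 1.53 (0.030). Snrpe, a splicing protein, was 11.18, 11.02 and 8.44 against 8.83, 7.76 and 9.38, and Uqcrh, of respiratory complex III, was 10.78, 11.98 and 7.85 against 9.23, 7.67 and 9.94. Joints 15 and 21 were far above the controls for both and joint 10 was within their range. On the lower side, Npr3 had a difference of -1.49 (adjusted p = 0.017) and Des -1.49 (0.040). Over all alternatives the adjusted p of these genes ran up to 0.94, and the lowest was 0.0019 for Aadacl4, 0.0026 for Snrpe, 0.017 for Npr3 and 0.026 for Des. Over the 147 genes the median difference from control was 1.43 for joints 15 and 21 and 0.34 for joint 10, and over the 44 lower genes it was -0.94 and -0.27. The genes were picked on joints 15 and 21 and all joints share the controls, so these medians are a description. The score of each single declining joint at sampling is not in the labels, and the study gives it for the group only. Joint 10 had the narrowest range of values of the declining arrays, and the part of that range in these counts was not tested.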

How the data were processed

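Expression was read from 15 arrays (Affymetrix Mouse Gene 1.0 ST, one colour), 1 per tarsal joint. Per the labels and the study's methods, joints were snap-frozen, RNA was amplified with a Pico kit, and the authors computed RMA values in R 2.15, so the deposited values are log2 intensities, background-corrected and quantile-normalised. A version of affy is not given there. The arrays still differed in spread, and precision is limited by how many arrays there are.

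Of 35556 probe sets, 21789 named 1 gene by the platform annotation, 1621 several and 12146 none listed, and 21698 matched a RefSeq gene ID. The probe set of highest mean was used per gene (999 genes had several), which left 19938 genes. Groups came from the labels, and animal 57 was left out, which left 14 arrays. limma 3.58.1 (R 4.3.3) was fitted with 5 group means, and declining joints were compared with controls, with the mean of the first 2 arthritic groups (week 0 to 2) and with week 3 to 4, two-sided, with Benjamini-Hochberg adjustment over all genes and a threshold of 0.05. The test was also run on simulated data with known changes. It called 93 of 100 genes changed 4-fold, 64 of 100 changed 2-fold and 10 unchanged genes. A gene had the same spread in all simulated arrays, while the real arrays differed in weight. The alternatives were the ANOVA that the methods name, other gene summaries, scalings, filters and array weights, animal 57 added, and each array left out.

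The groups, genes and 39 lists were chosen with earlier results of these data known, and lists are described by counts and medians only. The rule for named genes took the 15 largest non-overlapping differences each way at an unadjusted p under 0.05, up to 5 members of each list, genes the study names, the 5 largest each way against earlier phases and the 10 largest each way without joint 10. The text gives those that carry a comparison, and other list members (such as Il1b, Cd53 and Chad) were named after their values were seen. Promoter windows came from RefSeq on GRCm38.p6.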

Additional observations from a re-analysis of the deposited data

Results flagged for a closer look

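A difference between declining joints and the joints of week 0 to 2 was tested directly for all genes, and 533 genes were called higher in decline and 414 lower. The array letter code divides these groups in the same way and cannot be told apart from the phase. Among the named genes the differences (log2, decline minus week 0 to 2) on the higher side were 6.32 for Krt2, 6.09 for Krt24, 6.05 for Krtdap, 5.75 for Krt1 and 5.56 for Krt10. They were 3.80 for Elovl4, 3.41 for Far2, 3.36 for Aadacl4 and 2.91 for Elovl6. Cartilage genes followed with 2.00 for Clec3a and 1.99 for Chad, and Vpreb1 had 2.12. Muscle genes had 1.80 for Myl2, 1.66 for Atp2a1 and 1.47 for Myh1, and Retnla had 1.15, Ndrg2 1.08, Alpl 1.05 and Dlx5 0.87.

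On the lower side the differences were -3.54 for Saa3, -2.98 for Rplp0, -2.59 for Mrps18c, -2.56 for Cd53 and -2.51 for Snora31. Metalloproteinase and matrix genes had -2.44 for Mmp3, -1.86 for Timp1, -1.81 for Vcan, -1.67 for Mmp13, -1.54 for Has2 and -1.07 for Lum. Cytokine genes had -2.32 for Il6, -2.23 for Cxcl5, -1.93 for Inhba, -1.87 for Il1b, -1.40 for Ccl3, -1.19 for Ccl2 and -1.02 for Lif. C3ar1 had -2.05, Msr1 -1.89 and Ptgs2 -1.58. The gap of a single joint was not tested, since each group holds at most 3 joints.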

How the results depend on the processing

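The count of genes called in decline versus control was 0 and became 1 with every probe set tested (an unnamed probe set), 14 with one median and SD for every array, 20 with a second quantile normalisation and 109 without decline 10 and control 2 together. Leaving out 1 array gave 0 to 191. On the higher side at 2-fold, 255 genes became 87 by ANOVA of the 2 groups and 573 with all probe sets, and 146 to 550 with 1 array left out. On the lower side 39 became 17 by that ANOVA, 424 with all probe sets, 68 with array weights, 67 with one median and SD, 85 with a second quantile normalisation and 67 without decline 10 and control 2, and 36 to 88 with 1 array left out. At an unadjusted p under 0.05 the split of 1113 higher to 1287 lower became 1273 to 1055 with arrays centred on their medians, 1055 to 831 above a limit of 6 and 578 to 410 in limma on the 2 groups alone. The 947 genes called in decline versus week 0 to 2 became 82 by ANOVA of the groups compared, 189 by ANOVA over 5 groups, 119 with all 15 arrays and 2746 with array weights, and 203 to 1200 with 1 array left out. Decline versus week 3 to 4 called 0 genes in every alternative except array weights, which called 6. The cause of these shifts was not tested.

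Of 93 differences from control among named genes (those at an unadjusted p under 0.05, with Saa3 and Uqcrh), none changed direction and 32 were called in at least 1 alternative, and of 40 called differences from week 0 to 2, none changed direction and 37 lost the call in at least 1. Differences close to 0 did change sign, such as that of Il6 from 0.07 to -0.58 and that of Myl2 from -0.06 to 0.22 without control 3. Of the 39 list medians, 25 were above 0 in the main analysis and 22 to 27 with 1 array left out. Where a group was left with 1 joint, that joint was assumed to vary like the other groups. No paired analysis was possible because the groups hold different animals and share no replicate numbers across the arthritic phases, and a control number marks no animal of another group.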
